A study of Mus musculus with 4 samples.

Results

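Sleep deprivation in mice lacking the BK channel was examined by comparing the cortex library labelled KO SD with the library labelled KO BL, 2 of the 4 libraries of the study. Each library was made from total RNA pooled over 4 animals, so each group had 1 library and no replicate, and all differences below are described without a test. All 16 animals had the F1 background C57Bl6/J x Sv129. The knockout animals are labelled BK deficient, and no promoter or tissue that would restrict the deletion is named. The knockout sleep-deprived group (KO SD) was kept awake for 4 h by gentle handling from light onset. The knockout baseline group (KO BL) was left undisturbed over the same hours. Wildtype littermates under the same 2 conditions (WT BL and WT SD) give reference values, and runs of 4 values follow the order WT BL, WT SD, KO BL, KO SD. A pair of values gives KO BL and then KO SD, and parentheses give the log2 fold of KO SD over KO BL and its corrected value. Cortex was taken from all groups at ZT4, which is 4 h after lights on. Neither the sex and age of the animals nor the part of the channel gene that was deleted is stated in the labels.

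The BK channel is a potassium channel of large conductance that opens when the membrane depolarises and calcium rises at the same time. It shortens the action potential, shapes the after-hyperpolarisation and limits transmitter release. Prolonged waking is known to raise transcripts of activity-regulated genes in cortex, such as Arc, Homer1 and the Nr4a receptors, together with Per genes of the clock and chaperones of the endoplasmic reticulum. Rare cell types and the membranes around the cortex also contribute RNA to such pools.

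Of 39179 genes, 13550 had a mean of at least 50 over the 4 libraries and were compared, 12866 of them protein-coding. Values, called normalised counts here, are the authors' estimated read counts after division by a factor for each library. KO BL rested on 27.7 M estimated reads and KO SD on 42.0 M. A fold is log2 of the value plus 1 in KO SD minus the same in KO BL, and a gene past 1.5-fold (0.58 on this scale) is called higher or lower. By this rule 2193 genes (16.2%) were higher and 2225 (16.4%) lower in the library labelled KO SD, and 32.6% were past the threshold in either direction. The split depended on scaling, since 1713 higher and 2821 lower were counted when both libraries were brought to the same total. Mitochondrial transcripts made up 12.7% of normalised counts in KO BL and 19.4% in KO SD, against 13.4% and 13.5% in WT BL and WT SD.

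The fold followed the GC content of the transcripts. Across the 13550 genes, which share the same 2 libraries, Spearman's rho of fold with GC fraction was -0.71, and with transcript width 0.06. In the tenth of genes with the lowest GC (median fraction 0.41) the median fold was 0.69 and 62.4% of genes were higher. In the tenth with the highest GC (0.60) the median fold was -0.60 and 51.7% of genes were lower. The wildtype pair ran the other way (rho 0.33). KO BL against WT BL gave a rho of 0.80 and KO SD against WT BL a rho of 0.03. A corrected fold, from which a smooth trend with GC fraction and log10 width was removed, is therefore printed beside each fold. By corrected folds 1051 genes (7.76%) were higher and 719 (5.31%) lower, 13.1% in either direction. Counts for the gene lists below stand against these shares, and at deposited values against 16.2% higher and 16.4% lower. At deposited and corrected values alike, 676 genes (4.99%) were higher and 484 (3.57%) lower, and no gene was called in opposite directions by them. The share of these trends in any gene's value was not tested, and any biological difference that runs along GC content was removed with them.

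**Figure D1:**
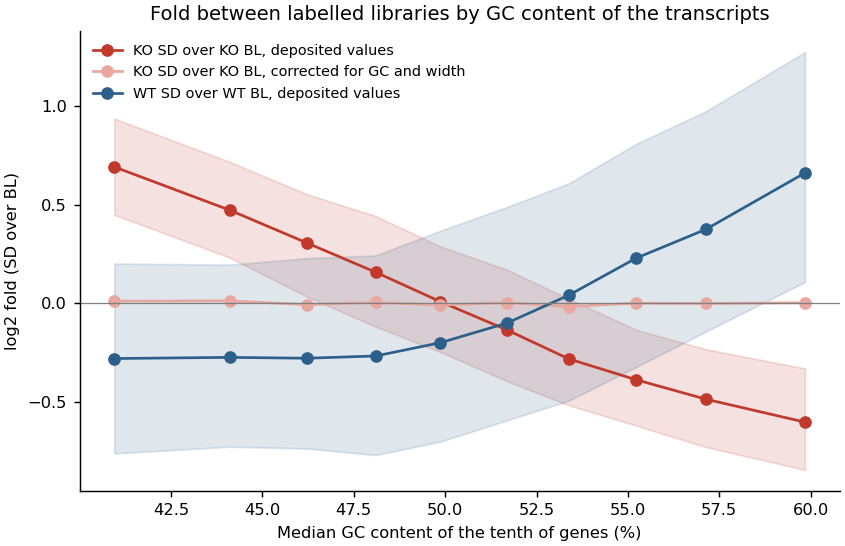
Median log2 fold (SD over BL, y axis) in 10 groups of the 13550 genes ordered by GC content (x axis, percent); shading spans the quartiles of each deposited comparison. The knockout pair runs from 0.69 down to -0.60, the wildtype pair from -0.28 up to 0.66, and the corrected knockout medians lie between -0.02 and 0.01.

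Kcnma1 codes for the protein that forms the pore of the BK channel. It lies on chromosome 14 (mm10, 23289431 to 23803304) and stood at 613.6 and 177.2 in WT BL and WT SD and at 447.2 and 490.9 in KO BL and KO SD. The lowest value was thus in a library labelled wildtype, and values per gene cannot tell whether an exon is missing. Between the knockout libraries the fold of Kcnma1 was 0.13 (95% counting interval -0.06 to 0.33, corrected -0.07). Of 9 BK subunit genes 5 were compared, and 1 was higher and none lower in KO SD. That gene was Kcnmb2, an auxiliary subunit that inactivates the channel, at 76.4 and 128.1 (fold 0.74), with a corrected fold of 0.03. Kcnmb4, the auxiliary subunit most typical of neurons, stood at 1916 and 1744 in KO BL and KO SD (-0.14, corrected -0.05). Because these libraries are not separated by Kcnma1, they are named by their labels throughout. Reads of genes that share exon sequence with another gene may be divided, which among the named genes applies to Bdnf, Crem, Cx3cr1, Gapdh, Htr1b, Kcnmb4, Kcnn2, Plin4, Rbm3 and those marked in the text, as well as to Kcnma1.

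Activity-regulated transcription factors are switched on within minutes of strong synaptic input and control later genes. Of 29 compared, 8 were higher and 2 lower in the library labelled KO SD at deposited values, with a median fold of 0.14 against -0.04 for all genes. By corrected folds 13 were higher and 1 lower (median 0.50, against 0.00 for all genes). Their median fold in the wildtype pair was 0.94 (corrected 0.87). Many of these transcripts are rich in GC, so the correction moved them upwards.

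The largest folds belonged to orphan nuclear receptors of the Nr4a family. Nr4a2 (chromosome 2, 57106830 to 57124003) stood at 238.7 and 967.6 in WT BL and WT SD and at 366.9 and 1635 in KO BL and KO SD. Its fold in the knockout pair was 2.15 (counting interval 1.98 to 2.34, corrected 2.18), and both sleep-deprived libraries were above both baseline libraries. Nr4a3 stood at 406.1, 1473, 483.6 and 1452 in the same order, a knockout fold of 1.58 (corrected 1.95). Nr4a1, the third receptor of the family, stood at 1951, 4663, 3278 and 3231, so that its knockout fold was -0.02 and its corrected fold 0.50. The 3 receptors thus differed: KO SD was the highest library for Nr4a2, close to WT SD for Nr4a3, and level with KO BL for Nr4a1.

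Factors of the AP-1 family, which bind DNA as Fos-Jun dimers, were spread over a wide range. Fosl2 stood at 1062 and 2086 in KO BL and KO SD (0.97, corrected 1.17). Fos was at 930.5 and 1241 (0.42, corrected 0.77), and Fosb at 583.8 and 707.5 (0.28, corrected 0.75). Junb, in contrast, was at 285.6 and 1217 in WT BL and WT SD and at 936.1 and 349.4 in KO BL and KO SD. Its knockout fold was -1.42 (counting interval -1.60 to -1.25, corrected -0.72), the lowest of the list, and it shares exon sequence with another gene. Maff, a small Maf factor, had few reads and stood at 30.1 and 68.4 in KO BL and KO SD (1.16, counting interval 0.51 to 1.91, corrected 1.69).

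Egr zinc-finger factors, rapid targets of MAP kinase signalling, were not past 1.5-fold at deposited values. Egr1 stood at 9475, 13420, 10570 and 11060, a knockout fold of 0.07 (corrected 0.50). Egr2 was at 351.1 and 513.8 in KO BL and KO SD (0.55, corrected 0.91), and Egr3 at 696.1 and 801.1 (0.20, corrected 0.88). Klf4, a Kruppel-like factor, was at 160.2 and 268.2 (0.74, corrected 1.41), and Crem, which represses cyclic AMP signalling in its short forms, at 488.8 and 1434 (1.55, corrected 1.06). Npas4, a factor specific to neurons and to calcium entry, was lower in fold, at 758.7 and 524.2 (-0.53, corrected -0.03). Call status at 1.5-fold for Egr2, Egr3, Fos and Fosb therefore turned on the correction.

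**Figure D2:**
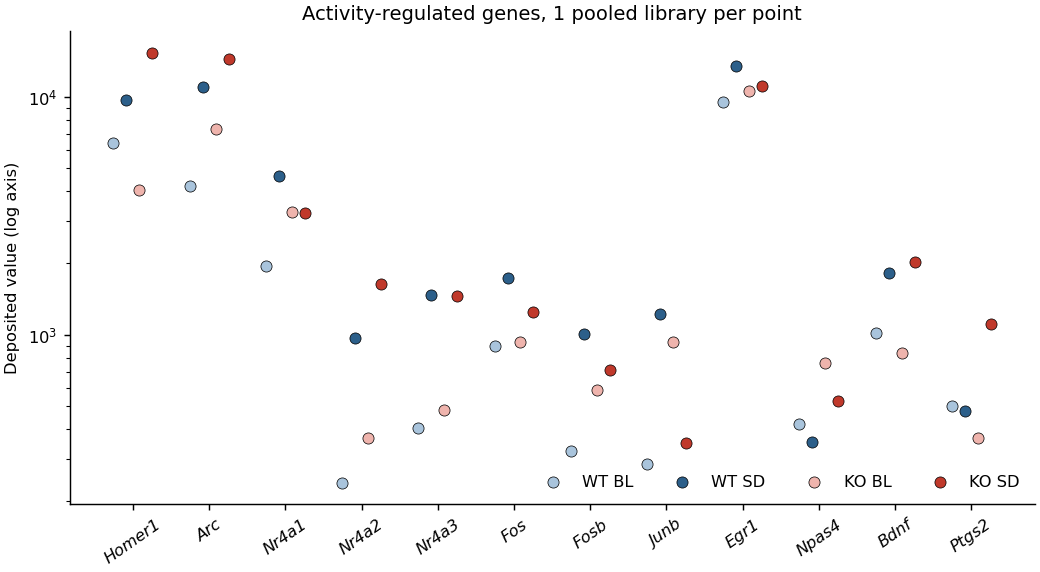
Deposited values (y axis, log scale) of 12 activity-regulated genes in the 4 libraries, 1 point per pool. KO SD lies above KO BL for Nr4a2, Nr4a3, Homer1, Arc, Bdnf and Ptgs2, at about the same level for Nr4a1 and Egr1, and below it for Junb and Npas4.

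Effector genes carry out the response at synapses and in growth factor signalling. Of 30 compared, 13 were higher and 2 lower in KO SD (median 0.50), and by corrected folds 10 were higher and none lower (median 0.39). Homer1 (chromosome 13, 93303757 to 93404129), whose short activity-induced form loosens postsynaptic scaffolds, stood at 6421 and 9724 in WT BL and WT SD and at 4051 and 15300 in KO BL and KO SD. Its knockout fold of 1.92 (1.86 to 1.97, corrected 1.43) started from the lowest library and ended at the highest. Arc (chromosome 15, 74669083 to 74672570), which controls the removal of glutamate receptors from synapses, stood at 4207, 11010, 7348 and 14370 in the same order (0.97, corrected 1.55). Both sleep-deprived libraries were above both baseline libraries for Homer1 and for Arc.

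Bdnf, a neurotrophin, stood at 1017, 1825, 837.9 and 2020, a knockout fold of 1.27 (corrected 0.57). Ptgs2, an inducible prostaglandin synthase, was at 500.4, 477.3, 368.2 and 1108 (1.59, corrected 0.89), so that KO SD alone stood high. KO SD alone stood high also for Pcsk1, a prohormone convertase, at 454.5, 401.6, 445.8 and 1101 (1.30, corrected 0.77). Gem, a small GTPase that restrains calcium channels, was at 46.3 and 152.3 in KO BL and KO SD (1.70, corrected 1.30). Lower members were Lingo1, an inhibitor of myelination (-0.84, corrected -0.24), and Gadd45g, a stress sensor (-0.78, corrected -0.20). Vgf, a secreted peptide precursor, was at 2116, 10440, 5335 and 4448, with WT SD high and KO BL above KO SD (-0.26, corrected 0.42).

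Promoters, taken as the 250 bases before to 50 after the start site in the RefSeq table (GRCm38.p6), were searched on both strands for the full cyclic AMP response element (TGACGTCA), bound by CREB, and the canonical E-box (CACGTG), bound by clock factors among others. The full element was in 2 of 23 early factors with a promoter in the table, 5 of 20 effectors and 1 of 20 clock genes, against 2.03% of all 27025 genes. The E-box was in 3, 6 and 5 of them, against 8.09% of all. The serum response element was in 2 early factors, Egr2 and Srf, and in 1.81% of all genes. A match describes the letters of the window and not a site in use, and Maff has 3 promoters in the table, of which 1 is shown. The promoters of Maff, Pcsk1 and Scg2 are shown as 3 of the 4 genes that hold the full element and were past 1.5-fold at deposited values, and that of Ciart because it carries 3 E-boxes and had the lowest corrected fold of the clock genes. Capitals mark the full element in Maff, Pcsk1 and Scg2 and the E-boxes in Ciart, and an E-box that Maff also holds is left in lower case. They lie at chr15:79347270-79347569 (plus strand), chr13:75089607-75089906 (plus), chr1:79439977-79440276 (minus) and chr3:95882179-95882478 (minus).
Maff: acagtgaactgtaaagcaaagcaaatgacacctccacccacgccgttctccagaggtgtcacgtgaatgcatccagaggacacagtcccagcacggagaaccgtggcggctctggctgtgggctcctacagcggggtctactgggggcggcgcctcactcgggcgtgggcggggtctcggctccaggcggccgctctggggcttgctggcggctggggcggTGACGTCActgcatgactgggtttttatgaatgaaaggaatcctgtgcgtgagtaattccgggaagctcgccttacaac
Pcsk1: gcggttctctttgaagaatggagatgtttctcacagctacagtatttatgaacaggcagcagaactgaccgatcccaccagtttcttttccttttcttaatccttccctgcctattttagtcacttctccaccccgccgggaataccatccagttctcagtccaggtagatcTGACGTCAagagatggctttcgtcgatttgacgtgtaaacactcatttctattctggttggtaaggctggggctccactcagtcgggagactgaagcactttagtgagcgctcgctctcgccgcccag
Scg2: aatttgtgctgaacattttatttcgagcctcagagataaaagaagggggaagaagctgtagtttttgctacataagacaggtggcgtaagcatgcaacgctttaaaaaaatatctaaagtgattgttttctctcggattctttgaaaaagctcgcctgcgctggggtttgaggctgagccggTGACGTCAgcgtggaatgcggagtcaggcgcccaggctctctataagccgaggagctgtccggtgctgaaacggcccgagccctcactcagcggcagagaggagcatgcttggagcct
Ciart: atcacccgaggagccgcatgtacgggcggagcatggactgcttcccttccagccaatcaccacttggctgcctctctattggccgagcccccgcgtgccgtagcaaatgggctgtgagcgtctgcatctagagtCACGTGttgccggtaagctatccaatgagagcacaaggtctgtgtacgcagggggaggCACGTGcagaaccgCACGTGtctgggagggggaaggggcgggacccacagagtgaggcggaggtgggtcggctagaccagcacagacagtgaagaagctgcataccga

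Genes with the full element did not all have like folds. Maff, Pcsk1, Arl5b (0.97, corrected 0.49) and Scg2, a granin (7785 and 11980 in KO BL and KO SD; 0.62, corrected 0.36), were higher. Btg2 (-0.51, corrected -0.47), Plk2 (-0.11, corrected -0.22), Arl4d (-0.27, corrected 0.16) and Hlf (0.08, corrected 0.03) were not past the threshold. Nr4a2, Nr4a3 and Homer1 were not among the genes with a match to the full element or the E-box. Not every listed gene had a promoter in the table, so a missing match may also mean no window was searched.

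Inhibitors of MAP kinase signalling are induced by the pathway and close it again. Of 19 compared, 5 were higher and 2 lower (median 0.15), and by corrected folds 5 were higher and 1 lower (median 0.31). Dusp6, a phosphatase of ERK, stood at 2597, 3677, 1925 and 3431 (0.83, corrected 0.81). Spry4, an inhibitor of growth factor receptors, was at 390.4 and 639.5 in KO BL and KO SD (0.71, corrected 0.83). Spred1 was at 5735 and 13150 (1.2, corrected 0.58). Among 17 entries for salt-inducible kinases and their partners 3 were higher and 2 lower (corrected 3 and 0). Sik1, a kinase induced by cyclic AMP, stood at 167.5, 361.9, 247.4 and 412.3 (0.73, corrected 1.14), with both sleep-deprived libraries on top. Sik3, which has been tied to sleep need in mice, was at 4520 and 3376 in KO BL and KO SD (-0.42, corrected -0.04). Of 14 CaM kinase genes 2 were higher and 4 lower (corrected 2 and 0). Camk2n1, an inhibitor of CaM kinase II, was at 155200 and 256300 (0.72, corrected 1.05), while Camk2b was at 29310 and 16190 (-0.86, corrected -0.38).

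Clock genes form a loop in which Per and Cry proteins repress their own activators. Of 24 compared, 6 were higher and 4 lower (median 0.08), and by corrected folds 6 were higher and 3 lower (median 0.03). Per2 stood at 552.7, 793.4, 786.4 and 1222 (0.64, corrected 1.0), with the sleep-deprived library above baseline in each genotype. Per1 was at 1054, 1702, 2215 and 1485 (-0.58, corrected 0.00), and KO BL was the highest of its 4 libraries. Ciart, a repressor in the loop, was at 374.2, 322.9, 457.4 and 193.9 (-1.23, corrected -1.16). Nr1d1, the repressor Rev-erb alpha, was at 2406, 1826, 3944 and 1541 (-1.36, corrected -0.87), and Dbp, an output factor, at 1363, 1954, 2137 and 1005 (-1.09, corrected -0.62). Nr1d1 and Dbp share exon sequence with other genes.

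RNA-binding genes induced by cold were represented by 4 genes, of which 1 was higher and 1 lower (corrected 1 and 0). Cirbp, the cold-inducible RNA-binding protein, stood at 1614, 1573, 2118 and 1068 (-0.99, corrected -0.57). Rbm3, its relative, was at 3231 and 2844 in KO BL and KO SD (-0.18, corrected -0.50). Srsf10, a splicing regulator, was at 1034 and 2705 (1.39, corrected 0.76). Among 27 cytosolic and mitochondrial heat shock genes 3 were higher and 1 lower (corrected 3 and 0), and Hspb1, a small heat shock protein, was at 244.2 and 327.1 (0.42, corrected 1.02).

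Chaperones of the endoplasmic reticulum fold secreted and membrane proteins. Of 24 genes of this group and the unfolded protein response 10 were higher and 2 lower (median 0.39), and by corrected folds 6 were higher and 3 lower (median 0.18). Over all genes 16.2% were higher and 16.4% lower, and by corrected folds 7.76% and 5.31%, so that both corrected counts were above the share over all genes. Hspa5, the chaperone BiP, stood at 10740, 15230, 9435 and 18300 (0.96, 0.92 to 0.99, corrected 0.85). Sdf2l1 was at 271.4, 1150, 406.5 and 679.8 (0.74, corrected 1.19), and Creld2 at 394.8, 1498, 484.0 and 819.5 (0.76, corrected 1.13). Both of these partners of BiP were highest in WT SD. Chac1, which degrades glutathione under stress, was at 209.3 and 88.1 in KO BL and KO SD (-1.24, corrected -0.71), and Asns, an amino acid stress gene, at 4210 and 2948 (-0.51, corrected -0.59).

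Glucocorticoid-responsive genes react to the stress hormone that handling can release. Of 27 compared, 4 were higher and 3 lower (median 0.04), and by corrected folds 7 were higher and 2 lower (median 0.30). Tsc22d3, the glucocorticoid-induced leucine zipper, stood at 2238, 8093, 1980 and 4324 (1.13, corrected 1.17). Fam107a was at 20980, 28570, 19700 and 34900 (0.82, corrected 1.09). Both sleep-deprived libraries were above both baselines for these genes. Pdk4, which switches cells from glucose to fat, was at 530.6, 228.6, 322.8 and 681.9 (1.08, corrected 1.36), high in KO SD and low in WT SD. Fkbp5, a co-chaperone of the receptor, was at 678.2, 1264, 1027 and 812.7 (-0.34, corrected -0.28), and Sgk1, a kinase, at 1921 and 1971 in KO BL and KO SD (0.04, corrected -0.13). Plin4, which coats lipid droplets, was at 107.7 and 37.7 (-1.49, corrected -1.05).

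Ttr, which carries thyroid hormone in cerebrospinal fluid, had the largest corrected fold among the genes eligible for naming. It lies on chromosome 18 (20665250 to 20674324) and stood at 25.3 and 23.8 in WT BL and WT SD and at 65.0 and 580.7 in KO BL and KO SD (3.14, counting interval 2.75 to 3.59, corrected 2.81). Ttr is made in large amounts by the choroid plexus, a tissue next to but not in the cortex. Only 4 of 16 choroid plexus and ependyma genes were abundant enough to compare, 1 higher and 1 lower (corrected 2 and 1). Their summed value was 367.9 and 867.1 in KO BL and KO SD, and without Ttr it was 302.8 and 286.4. Of the 15 genes of the list other than Ttr, compared or not, 11 had a larger and 4 a smaller value in KO SD, and their sum was 438.9 and 431.8. Rarres2 was at 111.2 and 139.0, Foxj1 at 66.4 and 72.0, Prlr at 9.54 and 21.5, and Aqp1 at 22.5 and 28.2. Kl was at 125.2 and 75.5 (-0.72, corrected -0.71), Folr1 at 13.8 and 3.51, Clic6 at 30.1 and 18.6, and Kcne2 at 1.25 and 2.63, which is no more than 3 reads in either library. In pooled tissue, more cells of a type and more RNA per cell cannot be told apart. The part of choroid plexus RNA in the Ttr value was not tested.

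Of 16 genes of thyroid hormone transport and action 3 were higher and 2 lower (median -0.16, and 0.03 by corrected folds, of which 4 were higher and 1 lower). Dio2, which activates thyroid hormone in astrocytes and shares exon sequence with another gene, stood at 4222, 9174, 2896 and 12840 (2.15, corrected 1.68). Slco1c1, a transporter of thyroxine, was at 2399 and 4469 in KO BL and KO SD (0.90, corrected 0.44).

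Astrocytes clear glutamate and potassium from the space around synapses. Of 23 astrocyte genes 12 were higher and none lower in the library labelled KO SD (median 0.60), and by corrected folds 10 were higher and none lower (median 0.53), with 22 of 23 above 0. In the wildtype pair 8 were higher and 4 lower by corrected folds (median 0.11), where 18.3% of all genes were higher and 18.3% lower. Slc1a2, the main glutamate transporter, stood at 114700 and 83200 in WT BL and WT SD and at 77530 and 153900 in KO BL and KO SD (0.99, corrected 1.12), and shares exon sequence. Aqp4, the water channel of astrocyte endfeet, was at 4663, 2321, 2230 and 5704 (1.35, corrected 0.70). Slc4a4, a bicarbonate transporter, was at 4536, 1774, 2432 and 5231 (1.10, corrected 1.08). For these 3 genes KO SD was the highest library, and WT BL lay above KO BL. Gjb6, a connexin, was at 2321 and 4163 in KO BL and KO SD (0.84, corrected 1.0), Kcnj10, a potassium channel for buffering, at 7551 and 12210 (0.69, corrected 0.72), and Gfap, the intermediate filament, at 4790 and 4929 (0.04, corrected 0.40).

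Luzp2 had the largest fold of the astrocyte list, at 572.0 and 57.8 in WT BL and WT SD and at 291.8 and 1321 in KO BL and KO SD (2.17, 1.98 to 2.38, corrected 1.75). Its values therefore ran in opposite directions in the pairs. Of 24 microglia genes 5 were higher and 0 lower (corrected 2 and 0), of 24 oligodendrocyte genes 4 and 6 (corrected 2 and 0), and of 10 precursor genes 2 and 3 (corrected 2 and 1). Of 24 endothelial genes 3 were higher and 3 lower (corrected 0 and 1), and of 13 pericyte genes 2 and 6 (corrected 1 and 1). Examples are Cx3cr1 of microglia at 2344 and 2362 in KO BL and KO SD (0.01, corrected 0.06), Mog of myelin at 1169 and 973.8 (-0.26, corrected -0.23) and Pecam1 of endothelium at 915.5 and 923.7 (0.01, corrected 0.05).

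Leptomeningeal genes, expressed in the thin membranes on the cortical surface, were lower as a group. Of 30 compared, 2 were higher and 21 lower (median -1.08), and by corrected folds none were higher and 21 lower (median -0.71). The wildtype pair gave 1 higher and 19 lower by corrected folds (median -0.86), where 18.3% of all genes were higher and 18.3% lower. Slc47a1, an exporter of organic cations, stood at 689.6 and 113.3 in WT BL and WT SD and at 495.5 and 115.8 in KO BL and KO SD (-2.09, -2.39 to -1.81, corrected -1.92). Slc13a4, a sulfate transporter, was at 1222, 406.1, 910.1 and 322.4 (-1.49, corrected -1.37), and Slc22a6, an organic anion transporter, at 633.8, 293.6, 529.5 and 244.0 (-1.11, corrected -1.0). Both baseline libraries were above both sleep-deprived libraries for these transporters. Ptgds, the prostaglandin D synthase, was at 43730, 67860, 56250 and 23070 (-1.29, corrected -0.92), low in KO SD and high in WT SD. The exceptions past 1.5-fold at deposited values were Aldh1a1 (0.69, corrected 0.39) and Slc7a11 (1.10, corrected 0.44), the second of which is also in the astrocyte list.

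Of 37 collagen and matrix genes 15 were lower and none higher (corrected 6 lower and 2 higher; median -0.47, corrected -0.09). Col1a2 was at 1064 and 474.6 in KO BL and KO SD (-1.16, corrected -1.35), and Col3a1, which shares exon sequence, at 199.1 and 100.9 (-0.97, corrected -1.56). Red blood cell and haem genes counted 2 higher and 9 lower of 24 (corrected 0 and 7; median -0.33, corrected -0.19). Hbb-bs, an adult beta globin, stood at 15840, 13390, 15540 and 5073 (-1.61, corrected -1.70), and Hbb-bt at 5536, 2510, 5145 and 1199 (-2.10, corrected -2.21). Hba-a1, an alpha globin, was at 5331, 9341, 7715 and 1804 (-2.10, corrected -1.75). Globin copies are nearly alike in sequence, so reads may be divided between them. Alas2, the erythroid enzyme of haem synthesis, which shares exon sequence, was at 515.9 and 107.1 (-2.26, corrected -2.23). KO SD was the lowest library for Hbb-bs, Hbb-bt, Hba-a1 and Alas2, and the amounts of membrane and blood in each pool are not known.

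**Figure D3:**
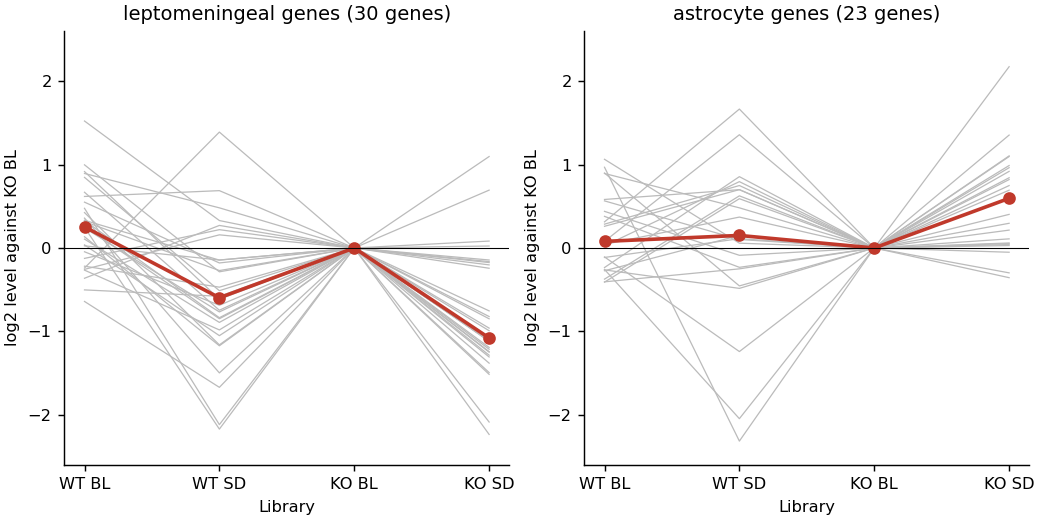
log2 level of each leptomeningeal gene (left, 30 genes) and astrocyte gene (right, 23 genes) in the 4 libraries relative to KO BL (y axis); grey lines are genes and red points the list median. The leptomeningeal median lies at 0.25 in WT BL, -0.60 in WT SD and -1.08 in KO SD, and the astrocyte median at 0.08, 0.15 and 0.60.

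**Figure D4:**
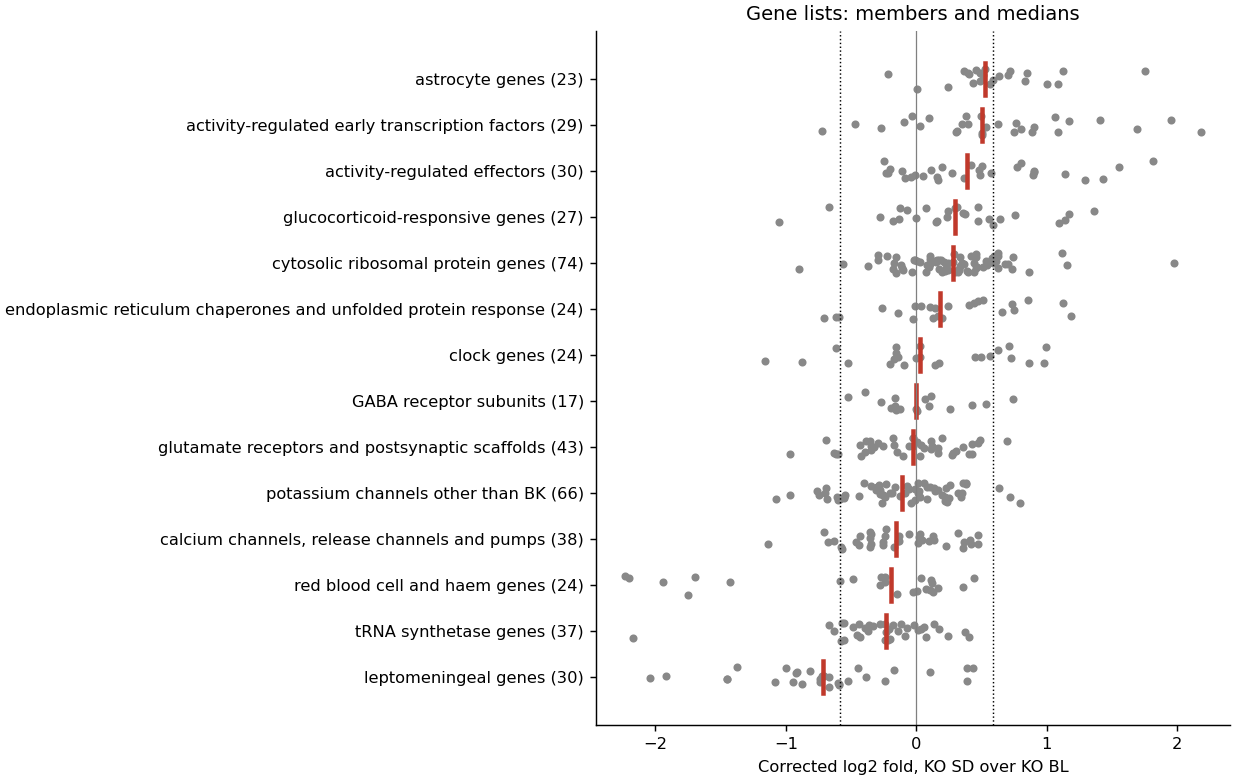
Corrected log2 folds of KO SD over KO BL (x axis) for members of 14 gene lists (grey points, number of genes in parentheses) with list medians (red bars); dotted lines mark 1.5-fold. Medians run from 0.53 for astrocyte genes to -0.71 for leptomeningeal genes.

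Ion channels other than BK set the excitability of neurons. Of 66 potassium channel genes 4 were higher and 20 lower (median -0.33), and by corrected folds 3 were higher and 9 lower (median -0.11). Kcnn2, an SK channel also opened by calcium, was at 1032 and 1572 in KO BL and KO SD (0.61, corrected 0.79). Kcnj4, an inward rectifier, was at 2076, 2860, 4095 and 1587 (-1.37, corrected -0.75), and KO BL alone stood high. Kcnj11, a subunit of the channel that senses ATP, was at 483.4 and 167.6 (-1.52, corrected -0.97). Of 38 calcium channel, release channel and pump genes 1 was higher and 12 lower (corrected 0 and 4; median -0.38, corrected -0.16). Slc8a2, a sodium-calcium exchanger, was at 6896, 3949, 10530 and 4452 (-1.24, corrected -0.68), and Cacnb2, a channel subunit that shares exon sequence, at 1225 and 738.3 (-0.73, corrected -1.13). Among 13 sodium pump and chloride transporter genes 1 was higher and 5 lower (corrected 0 and 3).

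Of 43 genes for glutamate receptors and postsynaptic scaffolds 4 were higher and 12 lower (median -0.33), and by corrected folds 1 was higher and 5 lower (median -0.03). Grm2, a presynaptic autoreceptor, was at 2089 and 703.3 in KO BL and KO SD (-1.57, corrected -0.97), and Grin1, the common NMDA receptor subunit, at 13880 and 6141 (-1.18, corrected -0.63); both share exon sequence. For 17 GABA receptor subunits 7 were higher and 2 lower (median 0.36), and the correction moved the median to 0 with 1 higher and 0 lower. The higher gene was Gabrg1, found largely in glia and some interneurons, at 487.7 and 1644 (1.75, corrected 0.74). Of 42 vesicle release genes 6 were higher and 13 lower (corrected 2 and 3). Nsf, the ATPase that recycles fusion complexes, was at 32700 and 19470 (-0.75, corrected -0.88), and Syt1, the calcium sensor of release, at 57530 and 45320 (-0.34, corrected -0.76).

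Receptors for transmitters of waking had a median fold below 0. Of 40 neuromodulator receptor genes listed, 39 were found and 23 were abundant enough to compare, 3 higher and 9 lower (corrected 3 and 3; median -0.45, corrected -0.24). Chrm3, a muscarinic receptor, was at 1233, 38.9, 1084 and 493.5 (-1.13, corrected -1.02), with WT SD far below the other libraries. Htr5a, a serotonin receptor, was at 936.2 and 670.8 in KO BL and KO SD (-0.48, corrected -0.72), and Htr1b at 234.2 and 570.6 (1.28, corrected 1.39). Hcrtr1 and Hcrtr2, the orexin receptors, were below the filter, at 26.3 in both knockout libraries and at 27.6 and 78.8. Of 16 adenosine receptor and turnover genes none were higher and 5 lower (corrected 0 and 2), with Slc29a1, a nucleoside transporter that shares exon sequence, at 530.9 and 258.9 (-1.03, corrected -0.64). Of 27 neuropeptide, granin and processing genes 8 were higher and 5 lower (corrected 5 and 2). Crh, the stress peptide, stood at 279.1, 750.7, 247.8 and 453.0 (0.87, corrected 0.95), and Cartpt at 224.3, 597.9, 166.3 and 395.9 (1.25, corrected 1.22), both above baseline in each pair. Pcsk2, a convertase that shares exon sequence, was at 18480 and 11040 (-0.74, corrected -1.16).

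Energy and biosynthesis genes gave mixed directions. Of 34 glucose, glycogen and lactate genes 5 were higher and 12 lower (median -0.32), and by corrected folds 4 were higher and 2 lower (median -0.17). Ppp1r3c, which targets a phosphatase to glycogen, stood at 2139, 4135, 1511 and 4488 (1.57, corrected 1.29). Pfkfb3, an activator of glycolysis, was at 1030, 1567, 1020 and 1575 (0.63, corrected 0.86), with both sleep-deprived libraries above both baselines. Slc16a3, a lactate exporter, was at 116.6 and 31.6 in KO BL and KO SD (-1.85, corrected -1.29). Gapdh, a glycolytic enzyme with many pseudogenes, was at 68990 and 36860 (-0.90, corrected -0.59). Of 28 cholesterol genes 7 were higher and 9 lower (corrected 3 and 0), and the median turned from -0.20 to 0.08 on correction. Insig1, a brake on sterol synthesis, was at 1954 and 3246 (0.73, corrected 0.63).

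Of 74 cytosolic ribosomal protein genes 18 were higher and 2 lower (median 0.28), and by corrected folds 14 were higher and 1 lower (median 0.28). The wildtype pair gave a median of 2.13 for them (corrected 1.11). Rps24 was at 9109, 41900, 7883 and 16890 (1.10, corrected 0.74). Rps16 was at 908.7, 6327, 149.7 and 541.9 (1.85, corrected 1.98), so that both knockout libraries lay below both wildtype libraries. Rps6 was at 236.9 and 120.6 in KO BL and KO SD (-0.97, corrected -0.90). These genes have many processed copies, so counts may be divided among loci. Of 76 respiratory chain genes encoded in the nucleus 7 were higher and 2 lower (corrected 3 and 2). Of 13 mitochondrial messenger RNAs 5 were higher and none lower (median 0.51), but on correction the median was -0.12, with 0 higher and 1 lower. The mitochondrial ribosomal RNAs mt-Rnr1 (134400 and 337400; 1.33, corrected 0.52) and mt-Rnr2 (189000 and 482900; 1.35, corrected 0.48) were higher at deposited values.

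Of 37 tRNA synthetase genes none were higher and 9 lower (median -0.27), and by corrected folds 0 were higher and 3 lower (median -0.23). Over all genes 16.2% were higher and 16.4% lower, and 7.76% and 5.31% by corrected folds. Lars2, the mitochondrial leucyl-tRNA synthetase (chromosome 9, 123366940 to 123462664), stood at 47230 and 19270 in WT BL and WT SD and at 53160 and 10590 in KO BL and KO SD (-2.33, -2.36 to -2.30, corrected -2.17). Among the other lower synthetases were Pars2 at 329.8 and 179.7 in KO BL and KO SD (-0.87, corrected -0.67) and Aars, which shares exon sequence, at 6742 and 3741 (-0.85, corrected -0.63). The 37 genes summed to 118845 in KO BL and 62999 in KO SD, so Lars2 made up a large part of the first sum. Whether all reads counted for Lars2 came from its messenger RNA was not tested. Lars2 is also on a list of 9 RNA quality and nuclear RNA genes, of which 4 were higher and 1 lower (corrected 5 and 2).

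Of 20 long noncoding RNAs 9 were higher and 1 lower (corrected 9 and 2), and nearly all share exon sequence with other genes. Xist, which coats the inactive X chromosome, stood at 5681, 5223, 4616 and 11650 (1.34, corrected 0.87). Ftx, its neighbour and activator, was at 194.1 and 530.0 in KO BL and KO SD (1.44, corrected 1.15). Y-linked genes stayed below the filter, with Ddx3y at 5.01 and 20.8 and Eif2s3y at 1.25 and 14.3. Malat1, a nuclear RNA, was at 7116 and 5937 (-0.26, corrected -0.94), and Rn7sk at 113.4 and 36.8 (-1.60, corrected -1.31). Of 53 splicing factor and RNA-binding genes 16 were higher and 2 lower (corrected 8 and 1). Elavl2, a neuronal RNA-binding protein, was at 1033 and 2446 (1.24, corrected 0.91), and Clk4, a kinase of splicing factors that shares exon sequence, at 631.7 and 1501 (1.25, corrected 0.67). Of 10 replication-dependent histone genes 5 were higher and 2 lower (corrected 4 and 0), with Hist2h3c2 at 35.4 and 74.4 (1.05, corrected 1.63).

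The 15 most raised and 15 most lowered genes by corrected fold were taken from protein-coding genes with a unique symbol, no shared exon and at least 20 estimated reads per knockout library, past 1.5-fold at deposited values too. That left 394 raised and 271 lowered genes to choose from. Besides those described, the raised set held Wisp1, a Wnt target, at 147.0, 218.6, 85.2 and 259.8 (1.60, corrected 1.89). Rfx4, a factor of neural and glial progenitors, was at 577.8, 613.0, 365.2 and 1121 (1.62, corrected 1.63). Scn7a, known for its role in sodium sensing, was at 88.4, 104.4, 30.1 and 156.2 (2.34, 1.76 to 3.06, corrected 1.62). KO BL was the lowest and KO SD the highest library for all 3. Paqr8, a membrane progesterone receptor, was at 3165 and 7679 in KO BL and KO SD (1.28, corrected 1.48). Lonrf3 had few reads, at 36.3 and 84.0 (1.19, corrected 1.47).

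Among the lowered genes were several on the leptomeningeal and haem lists. Lbp, which binds bacterial lipid, was at 89.5, 43.3, 140.2 and 29.0 (-2.24, -2.88 to -1.70, corrected -2.04). Hfe2, an iron regulator, was at 194.8, 63.3, 126.5 and 23.7 (-2.37, corrected -1.95). Mgp, an inhibitor of calcification, was at 1115, 1486, 1332 and 537.6 (-1.31, corrected -1.45), and Crabp2, a retinoic acid carrier, at 215.8, 274.3, 235.4 and 81.7 (-1.52, corrected -1.45). Outside those lists, Slc6a12, a betaine and GABA transporter, was at 87.2, 35.9, 100.2 and 29.0 (-1.76, corrected -1.46), with both baselines above both sleep-deprived libraries. Aox3, an aldehyde oxidase, was at 102.7 and 35.8 in KO BL and KO SD (-1.5, corrected -1.85), Samd3 at 77.3 and 31.6 (-1.26, corrected -1.80), and Ripply2 at 62.6 and 24.6 (-1.31, corrected -1.71). Tmem232 was at 147.8 and 65.8 (-1.16, corrected -1.62), and Hmmr, a hyaluronan receptor, at 86.5 and 46.9 (-0.87, corrected -1.46). Several of these genes had few reads. Counting intervals were -2.07 to -0.65 for Ripply2, -1.93 to -0.68 for Samd3, -1.44 to -0.36 for Hmmr and -2.42 to -1.19 for Slc6a12. In the tenth of genes with the lowest mean over the 4 libraries, 11.4% were higher and 13.4% lower by corrected folds, against 7.76% and 5.31% of all genes.

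The knockout and wildtype pairs share no library, and their folds were set side by side to ask where sleep deprivation went with the same difference in both genotypes. In the wildtype pair 3321 genes (24.5%) were higher and 3259 (24.1%) lower at deposited values, and 18.3% in each direction by corrected folds. Spearman's rho across genes between the folds of the pairs was -0.01 at deposited values and 0.33 by corrected folds. Genes are not independent replicates, and each pair's GC trend enters the first of these values. At deposited and corrected values alike, 212 genes (1.56%) were higher in both pairs and 206 (1.52%) lower in both, where each pair alone had 4.99% and 13.5% higher and 3.57% and 13.8% lower. In opposite directions were 54 genes (0.399%) higher in the knockout and lower in the wildtype pair, and 25 (0.185%) the other way.

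Of the genes higher in both pairs, 99 were protein-coding, with a unique symbol, no shared exon, no Gm or Rik name and at least 20 estimated reads per library. The 8 of these with the largest smaller corrected fold were Nr4a2, Nr4a3, Rps16, Prkg2, Gem, Ppp1r3c, Rasl11a and Arc. Prkg2, a kinase opened by cyclic GMP, stood at 766.9, 2003, 455.8 and 1508 (1.72, corrected 1.36). Rasl11a, a Ras-like GTPase, was at 81.5, 240.4, 66.4 and 147.4 (1.14, corrected 1.31). By the same rules 114 genes were lower in both, and the 8 chosen were Hbb-bt, Slc47a1, Aox3, Hfe2, Hmmr, Slc6a12, Car13 and Slc13a4. Car13, a carbonic anhydrase, was at 153.8, 35.6, 111.0 and 63.2 (-0.80, corrected -1.44).

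**Figure D5:**
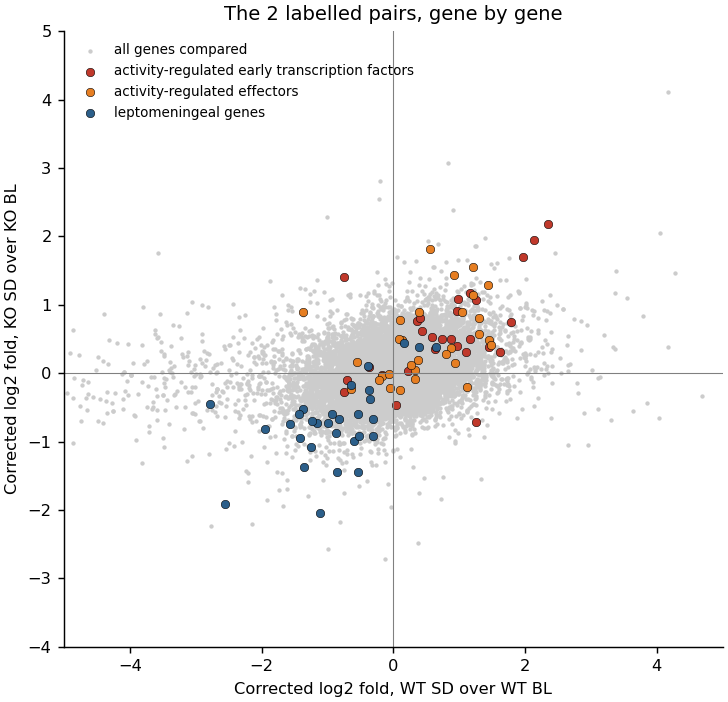
Corrected log2 folds of the wildtype pair (x axis) and knockout pair (y axis), 1 point per gene; 67 of the 13550 genes lie outside the axes. Most early transcription factors and effectors lie above 0 in both pairs and most leptomeningeal genes below 0 in both.

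A difference of at least 1 between the knockout and the wildtype fold was found for 2254 genes (16.6%) with the knockout fold above and 2603 (19.2%) with it below. The larger side depended on scaling, with 2988 above and 2029 below at the same nuclear total and 2507 and 2352 at the same total. By corrected folds 1116 (8.24%) lay above and 745 (5.5%) below. No test of this difference was possible. Genes named here were protein-coding, with a unique symbol, no shared exon and at least 20 estimated reads in each of the 4 libraries. Symbols with Gm and a number or ending in Rik were passed over. Among these genes, the 8 with the knockout fold farthest above by corrected folds were Luzp2, Wasf3, Trpc1, Nav3, Pcdh9, Mark4, Ankrd45 and Cacna1e. Except for Luzp2, their knockout folds lay between -1.04 (Mark4) and 0.44 (Cacna1e), and WT SD was far below the other libraries. Wasf3, an actin regulator, for example stood at 1715 and 108.2 in WT BL and WT SD and at 1779 and 2098 in KO BL and KO SD. Farthest below were Psg29, Ndufb7, Cst6, Brip1, Rps7, Hist4h4, Wdr89 and Shfm1, with WT SD the highest library in each. Ndufb7, a subunit of respiratory complex I, stood at 601.3, 5422, 1555 and 1048. Most of the differences of these named genes thus came with an extreme value in WT SD, not in a knockout library. The minimum of reads leaves out genes with a knockout library near 0, so this does not describe all genes. Gm14440, which was left out, stood at 110.4, 2.19, 0 and 177.5, a difference of 12.6.

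Markers of cortex and of neighbouring regions were read in both knockout libraries. Slc17a7, the vesicular glutamate transporter of cortical neurons, was at 52110 and 27660 in KO BL and KO SD (-0.91, corrected -0.33). Tbr1 was at 4438 and 5190 (0.23, corrected 0.62) and Gad1 of inhibitory neurons at 12140 and 11190 (-0.12, corrected 0.11). Of 32 projection neuron genes 3 were higher and 6 lower (corrected 6 and 0), and of 25 interneuron genes 1 and 6 (corrected 0 and 2). Among 9 striatal genes 1 was higher and 4 lower (corrected 1 and 2). Of 8 thalamic genes 4 were higher and 1 lower (corrected 3 and 0), and their summed value was 3988 and 6072 in KO BL and KO SD. Tcf7l2 was at 106.5 and 190.4 (0.83, corrected 0.93). The 13 hypothalamic markers were all below the filter and summed to 151.6 and 75.2 in KO BL and KO SD. Pomc made up most of the first sum, at 10.3, 41.1, 94.1 and 3.51 in the 4 libraries. Of the 13 markers, 7 had a larger and 5 a smaller value in KO SD than in KO BL. The smaller values were those of Pomc, Trh, Otp, Avp and Oxt. Among the larger, Hdc was at 18.8 and 29.8 and Pmch at 6.26 and 13.1. Hcrt, at 0 and 1.76, was below the floor of 3 reads in both knockout libraries. The part of neighbouring regions in any result was not tested.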

How the data were processed

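Total RNA of cortex, pooled over 4 animals per group, was sequenced on a HiSeq2500, per the labels' protocols. The submitters' processing notes name RSEM 1.2.19, edgeR and the builds mm10 and GRCm38, with no role for each. The deposited signal values behave as estimated counts scaled by the authors, each library by its own factor. Of values under 50, 64.4% to 73.3% per library were whole multiples of 1 read (tolerance 0.02 reads). The GC fraction and width of each gene model are used as deposited. The deposited ratio and false discovery columns were not used.

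Folds are differences of log2(value + 1), which understate the change of low genes, for genes whose mean over the 4 libraries reached 50. Corrected folds are residuals of an R 4.3.3 loess fit (span 0.3, degree 2, symmetric) on GC fraction and log10 width. The loess step was tested on simulated data with a GC trend in the knockout pair only and no width trend. Its removal of width trends and its use on the wildtype pair were thus not tested. Counting intervals are exact binomial (95%) on estimated reads and cover counting error only. Tables were handled in Python 3.11.15 with pandas 2.3.3, numpy 2.4.6 and scipy 1.17.1. With 1 library per group no test was made.

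Named genes are the 15 most raised and 15 most lowered by corrected fold, members of 59 lists, the 8 most alike or unlike the wildtype pair per direction, and Kcnma1. The rules, the lists and the comparison were chosen with earlier results of these data known. Of 1660 symbols on the lists 1640 were in the table and 1431 were compared. Hdac4, Kcnb2, Cux2 and Pclo each name 2 entries, both counted. Of the genes compared 4960 share exon sequence with another gene in GENCODE, so their reads may be divided. Alternatives were the pseudocount, filter, scaling, correction, threshold and exclusion of shared exons. Results for some list members are not reported here.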

Additional observations from a re-analysis of the deposited data

Results flagged for a closer look

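For 6 named genes the library labelled KO SD lay past 1.5-fold on one side of KO BL while WT SD lay past it on the other side of WT BL, at deposited and corrected values alike. Each group had 1 library and the difference between the pairs was not tested. The knockout fold minus the wildtype fold was 5.46 for Luzp2, an astrocyte gene, 2.46 for Slc4a4, an astrocyte bicarbonate transporter, and 2.29 for Pdk4, a glucocorticoid-responsive kinase. It was 2.14 for Peg10, an imprinted gene, at 257.9 in WT SD and 661.0 in KO SD. The knockout fold of Peg10 was 0.62 (counting interval 0.44 to 0.81). Its corrected value of 0.59 was barely past the threshold of 0.58. In the other direction the difference was -2.76 for Dusp2, a phosphatase of the MAP kinase pathway, and -2.93 for Rps6, a ribosomal protein. By corrected folds the differences were 5.3 for Luzp2, 2.01 for Slc4a4, 2.52 for Pdk4, 1.48 for Peg10, -1.82 for Dusp2 and -2.04 for Rps6. Dusp2 stood at 97.3 in WT SD and 26.3 in KO SD. It had few reads, an estimated 44.0 in KO BL and 30.0 in KO SD. Its knockout fold was -1.04 (counting interval -1.79 to -0.36, corrected -0.64).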

How the results depend on the processing

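No paired analysis was possible because each group had 1 pool, and for the same reason no library could be left out. Correction for GC and width gave 1051 genes higher and 719 lower, with 1116 knockout folds above and 745 below the wildtype fold by at least 1. Correction for GC alone gave 1063, 771, 1304 and 1392. Among the 8372 genes with no shared exon, repeated symbol or library at 0 the counts were 1414, 1339, 1451 and 1547, with fewer genes tested. A 2-fold threshold gave 567 and 419, and a difference of at least 1.5 gave 895 and 1285. Scaling to the same total, chosen after seeing the data, moved the median fold of all genes to -0.12 and the share of higher among called genes from 49.6% to 37.8%, centring moved it to 54.5%, and correction for GC and width to 59.4%. Across every scaling and correction tried 575 genes were higher and 441 lower. The median of several lists changed sign, from -0.16 to 0.03 for thyroid, -0.20 to 0.08 for cholesterol -0.32 to 0.02 for adenosine genes and 0.51 to -0.12 for mitochondrial messenger RNAs on correction, and from -0.32 to 0.09 for glucose genes without shared exons. The cause was not tested. Which direction held more genes also turned: knockout folds above and below the wildtype fold by at least 1 numbered 2254 and 2603 at deposited values, 2988 and 2029 at the same nuclear total and 2507 and 2352 at the same total. Depth limits genes near the floor of 3 reads, 3.76 normalised counts in KO BL and 2.63 in KO SD.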

Other observations

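A run of 31 compared zinc-finger and neighbouring genes at the far end of chromosome 2 (mm10, 175129493 to 178078476), chosen after its values were seen, was mostly higher in the library labelled KO SD. At deposited values 28 were higher and none lower (median 1.24), and by corrected folds 14 were higher and none lower (median 0.52). Their GC fractions were low, from 0.368 to 0.421. In the tenth of all genes with the lowest GC, 62.4% were higher at deposited values and 5.54% by corrected folds. In the wildtype pair 16 were higher and 8 lower at deposited values, where 24.5% of all genes were higher and 24.1% lower. These genes are near-copies of each other, so reads may be divided among them, and 2 share exons.

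Of 15 ubiquitin and autophagy stress genes 1 was higher and 3 lower (corrected 0 and 0), of 23 oxidative stress genes 3 and 1 (corrected 2 and 0), of 32 interferon-response genes 6 and 2 (corrected 2 and 0), and of 41 proteasome genes 4 and 2 (corrected 0 and 1). Of 14 angiogenic, hypoxia and feeding factors 1 was higher and none lower, also on correction. Imprinted genes counted 6 higher and 3 lower of 25 (corrected 6 and 2), with Peg10 at 741.7 and 257.9 in the wildtype pair and 429.5 and 661.0 in the knockout pair (0.62, corrected 0.59). Of 76 mitochondrial ribosomal protein genes 7 were higher and 3 lower (corrected 3 and 0), and of 75 translation initiation genes 18 and 7 (corrected 4 and 2). Of 19 peptide receptors 3 were higher and 5 lower (corrected 2 and 1), with Oprk1, the kappa opioid receptor, at 62.6 and 178.1 (1.49, corrected 0.98). Of 8 sodium channel subunits 1 was higher and 1 lower (corrected 1 and 1), of 7 hippocampal genes none were higher and 3 lower (corrected 0 and 1), and of 2 olfactory bulb genes 0 and 1 (corrected 0 and 0). All 6 listed bulb genes, compared or not, had a smaller value in KO SD than in KO BL. Cdhr1 was at 166.5 and 102.8, Doc2g at 68.11 and 55.63, and Th at 42.65 and 12.29. Eomes was at 8.77 and 1.76, Tbx21 at 10.02 and 3.51, and Barhl2 at 1.25 and 0. The part of bulb tissue in any result was not tested.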
